A study of Homo sapiens with 6 samples.

Results

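Nuclear genes of the mitochondrial respiratory chain, and the long non-coding RNA CEROX1, were followed in SW480 cells, a human colorectal cancer cell line, after small interfering RNA (siRNA) against the transcription factor ZEB1. Members were chosen by gene name alone. A name counted if it began with NDUF, UQCR, ATP5 or COX plus a digit, or was SDHA, SDHB, SDHC, SDHD, CYC1, CYCS or CEROX1. After 47 pseudogene names and 3 antisense names were left out, 108 of 32029 listed genes remained. Of these, 45 belonged to complex I, 4 to complex II, 10 to complex III, 1 to cytochrome c, 26 to complex IV and 20 to complex V, assembly factors included, and 2 were non-coding. The control group (siControl, titled siNC) and the ZEB1-knockdown group (siZEB1) each held 3 cultures of SW480 cells labelled WT, and RNA was taken 48 h after transfection. Both groups are therefore the same line and differ in the siRNA, whose sequences were not given in the sources used here.

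The respiratory chain moves electrons from NADH and succinate to oxygen and uses the energy to make ATP. Complex I (NADH dehydrogenase) and complex II (succinate dehydrogenase) pass electrons to ubiquinone, complex III passes them to cytochrome c, complex IV (cytochrome c oxidase) reduces oxygen, and complex V is ATP synthase. All but complex II also hold subunits that the mitochondrial genome encodes, so that nuclear and mitochondrial transcripts have to be made together. Assembly factors help to build the complexes, some of them by inserting heme, copper or iron-sulfur groups, and are not part of the finished enzymes. CEROX1 is known as a cytoplasmic RNA that raises complex I subunit levels and binds the microRNA miR-488-3p. ZEB1 is a zinc finger repressor of epithelial genes that binds E-boxes.

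Reads assigned to genes summed to between 19040636 and 22357633 per culture. ZEB1 had 1247, 1276 and 908 reads in siControl and 136, 132 and 162 in siZEB1. The log2 fold change was -2.85 ± 0.11 with its SE (edgeR quasi-likelihood test, adjusted p = 4.85e-12). The epithelial keratins KRT8 and KRT18 were abundant in each culture, the endothelial marker PECAM1 had 24 to 35 reads and the liver marker ALB at most 1. KRT19, EPCAM and VIL1 were higher in all siZEB1 cultures and the intestinal factor CDX2 was lower, and the part of such changes in the results on the respiratory chain was not tested. The coding members also shifted a little between cultures of one group. Their median deviation from each gene's mean over the 6 cultures was -0.06, -0.02 and 0.04 log2 units in siControl and 0.03, 0.08 and -0.06 in siZEB1. The highest and the lowest culture were thus both siZEB1 cultures.

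The mature microRNA and its match in CEROX1 are shown because CEROX1 is known to bind this microRNA. The match was found by a search for the seed letters, and whether it acts as a site in these cells was not tested. Capitals mark the seed, bases 2 to 8 of the microRNA, and the matching bases of the transcript, which are written as DNA.
hsa-miR-488-3p: uUGAAAGGcuauuucuugguc
CEROX1 site: gtggctcggatCCTTTCAaccagcgcgctg
The microRNA sequence is that of RefSeq (GRCh38.p14) and maps to chr1:177029374-177029394 on the minus strand. One and the same site of 7 bases stood in 3 of the 8 annotated CEROX1 transcripts, at position 260, 937 or 943 of transcripts of 3222, 3343 and 3726 bases. The letters CCTTTCA were found in 21.7% of 1552 tested non-coding genes. In 3′UTRs (the untranslated ends of messenger RNAs) they were found in 6 of 97 coding members (6.19%) and in 14.9% of 12242 coding genes, whose median 3′UTR length was 1094 bases beside 323 for the members.

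The first comparison asked whether the respiratory chain as a whole changed with ZEB1 knockdown. The members took 0.802% ± 0.0291 of all counts in siControl and 0.809% ± 0.0376 in siZEB1 (SD, n = 3; exact permutation test, two-sided, p = 0.9). With 3 cultures against 3 the smallest p that this test can give is 0.1. The shares of complexes I, III, IV and V overlapped between the groups. The share of cytochrome c was 0.0432% ± 0.00313 in siControl and 0.0541% ± 0.000481 in siZEB1, and that of complex II was 0.0237% ± 0.00028 and 0.0258% ± 0.00115. These groups did not overlap (exact permutation p = 0.1 for each, and 0.3 after Benjamini-Hochberg adjustment over 9 shares). In bulk RNA a lower level in each cell and a smaller share of cells with the transcript cannot be told apart.

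**Figure D1:**
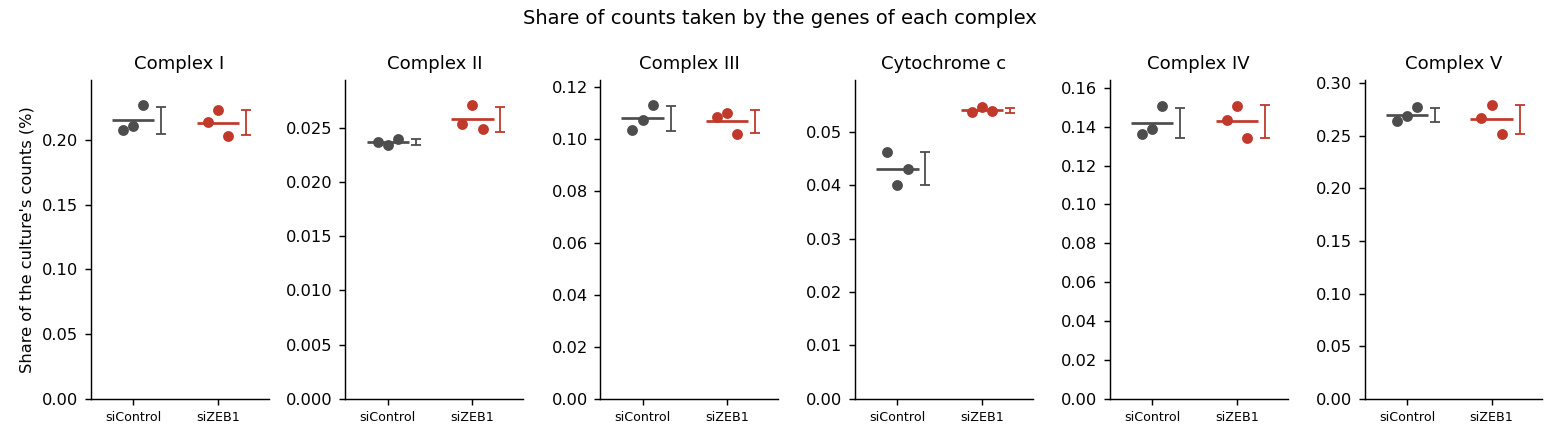
Share of each culture's counts (percent, linear axes from 0, with a separate scale per panel) taken by the genes of complexes I to V and cytochrome c, assembly factors included. Points are cultures, horizontal lines group means and bars the SD (n = 3). The groups overlap for complexes I, III, IV and V and are apart for complex II and cytochrome c.

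Single members nevertheless moved in both directions. Of the 108 members, 99 had enough reads to be tested, and 14 rose and 17 fell with siZEB1 (edgeR quasi-likelihood test, Benjamini-Hochberg adjusted p below 0.05 over all 14996 genes tested). That was 31.3% of the tested members, beside 40.2% of all genes tested. By direction, 19.0% of all genes rose and 21.2% fell. The groups did not overlap for 31 members, 31.3%, beside 49.5% of all genes. The median log2 fold change of the tested members was 0.06, beside -0.01 for all genes, and 70.7% of the members changed by less than 0.25 log2 units, beside 49.9% of all genes. The members' median was -0.01 without siControl culture 1, 0.00041 without siZEB1 culture 2 and 0.09 without siZEB1 culture 3, so its direction rests on single cultures. The number of calls depended on single cultures. Without siControl culture 2 there were 9 higher and 11 lower members, without siControl culture 3 there were 22 higher and without siZEB1 culture 2 there were 9 higher. The share of all genes called in these fits is not given here, so these counts are no result about the members as such. In each of the alternative fits that could test them, 9 of the 14 higher and 9 of the 17 lower members stayed past the threshold.

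**Figure D2:**
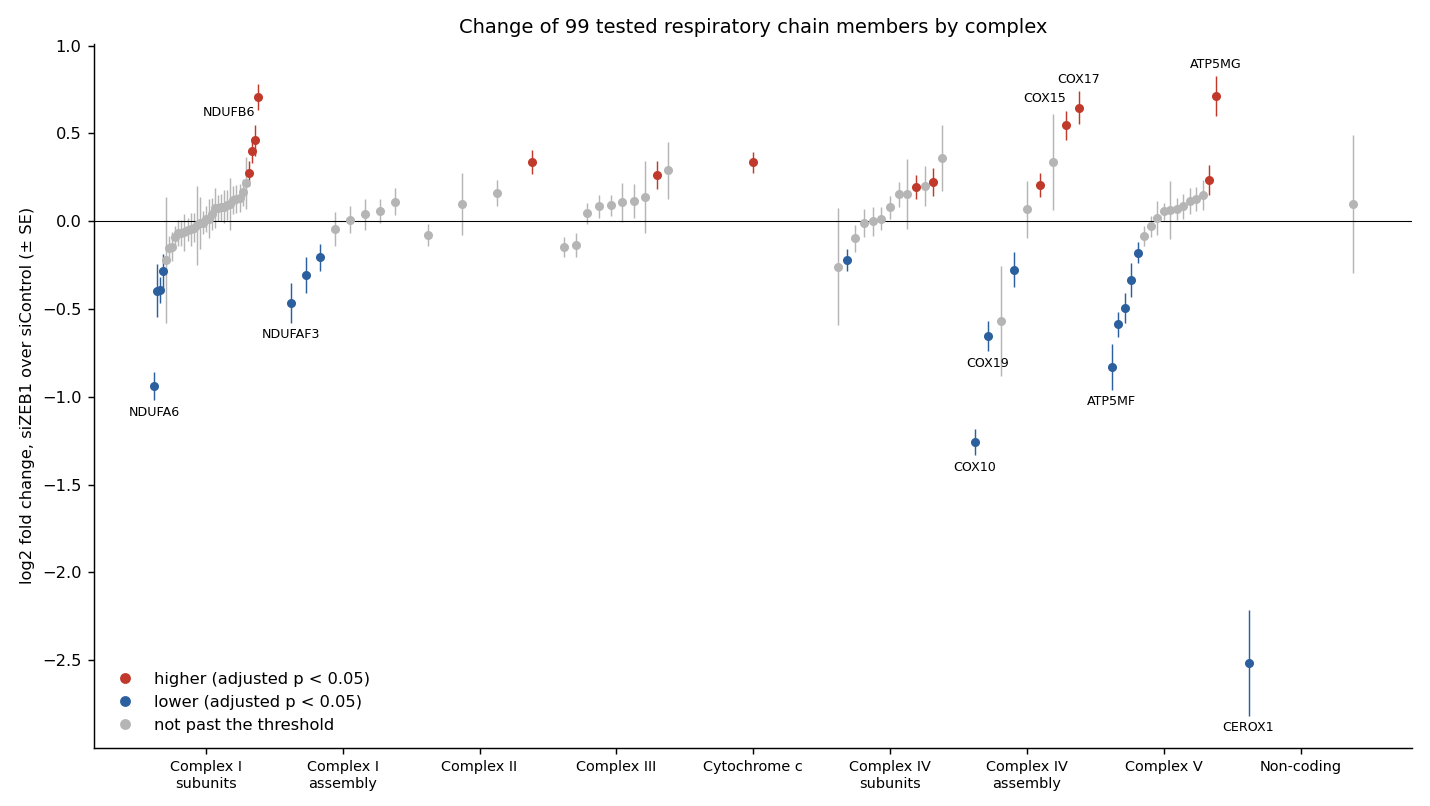
Log2 fold change of siZEB1 over siControl (vertical axis) for the 99 tested members, sorted by value within each complex. Points are genes and bars the SE derived from the F statistic of the test. Red and blue mark genes past an adjusted p of 0.05 and grey the others. Most members lie close to 0, while the assembly factors of complex IV spread from -1.26 for COX10 to 0.65 for COX17, and CEROX1 lies lowest at -2.52.

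CEROX1 fell most of the 99 tested members. It had 49, 45 and 52 reads in siControl and 7, 8 and 8 in siZEB1, so that each knockdown culture lay far below each control culture. The level went from 2.34 ± 0.345 to 0.402 ± 0.0267 CPM (the count scaled to the effective library size; SD, n = 3). This was a 5.72-fold lower level, with -2.52 ± 0.30 on the log2 scale (adjusted p = 4.09e-06). The gene lies at chr16:975761-981596 (GRCh38, minus strand) and is annotated as a long intergenic non-coding RNA.

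The listed genes nearest to CEROX1 had fewer reads as well, and those further away are not reported here. SOX8, a transcription factor of the SOX family, starts 212 bases away on the other strand, at chr16:981808-986979, and is transcribed away from CEROX1. Its reads were 56, 52 and 58 in siControl and 10, 15 and 11 in siZEB1 (log2 fold change -2.06 ± 0.27, adjusted p = 1.07e-05). The reads of CEROX1 per read of SOX8 were 0.875, 0.865 and 0.897 in siControl and 0.700, 0.533 and 0.727 in siZEB1. Both transcripts kept only a small part of their reads, and the ratio was lower in each siZEB1 culture (exact permutation p = 0.1, the smallest that this test can give). The siZEB1 ratios rest on 10 to 15 SOX8 reads and on fewer CEROX1 reads. The pair was also chosen, as 1 of 8, after values were seen, so the ratio does not settle which gene fell more. On the other side the nearest listed gene, AC009041.3, had 16, 11 and 22 reads against 2, 6 and 5 and was below the filter for testing. LMF1, a lipase maturation factor that overlaps CEROX1 on the same strand, was looked up after its values were seen. It had 89, 99 and 101 reads against 40, 45 and 41 (log2 fold change -1.06 ± 0.17, adjusted p = 0.000113). AC009041.3 lies within the span of LMF1 on the same strand and is annotated as sense intronic. The lower counts of AC009041.3 and LMF1 can therefore not be taken as independent. Exons of other genes on the same strand cover 4.46% of the CEROX1 exon bases, and whether reads were shared was not tested.

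Complex I was the largest group, with 35 tested subunits, of which 4 rose, 4 fell and 27 did not pass the test. The share called was 22.9%, beside 40.2% of all genes. The median log2 fold change of the 35 subunits was 0.01. Core subunits carry the electrons. Among them NDUFV1, the NADH-binding subunit, stood at -0.15 ± 0.07 (adjusted p = 0.0934) and the iron-sulfur subunit NDUFS1 at -0.05 ± 0.07 (adjusted p = 0.597).

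Accessory subunits surround the core of complex I and stabilise it. Of 28 tested, 3 rose, 4 fell and 21 did not pass. NDUFA6, a subunit with the LYR motif, showed the largest change of these, with 1092, 1145 and 1145 reads in siControl against 562, 540 and 508 in siZEB1. The level fell by 0.94 ± 0.08 on the log2 scale (adjusted p = 1.12e-07), and the groups lay far apart. NDUFA6-DT, a transcript named as divergent from NDUFA6, had 11, 15 and 26 reads against 11, 23 and 17 (log2 fold change 0.10 ± 0.39, adjusted p = 0.869), which overlapped.

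The other accessory subunits changed less. NDUFB6 (582, 599 and 558 reads against 752, 796 and 631) rose by 0.46 ± 0.09 and NDUFA8 (944, 953 and 849 against 1072, 1146 and 1073) by 0.40 ± 0.07 log2 units, with adjusted p of 0.00053 and 0.000172. NDUFB5 rose by 0.27 and NDUFV3 and NDUFA3 fell by 0.39 and 0.28. NDUFA11 fell by 0.40 ± 0.15 with an adjusted p of 0.0471, from 113, 133 and 114 reads to 72, 78 and 99, and it was past the threshold in 4 of 12 alternative fits. Among the 8 complex I assembly factors none rose and 3 fell, 37.5% beside 40.2% of all genes. These were NDUFAF3 (log2 fold change -0.47 ± 0.11, adjusted p = 0.00364; 213, 253 and 230 reads against 145, 168 and 146), NDUFAF8 at -0.31 and NDUFAF7 at -0.21.

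Complexes II and III and cytochrome c each had 1 member that rose and none that fell. This was 1 of 4 tested members in complex II and 1 of 10 in complex III, and cytochrome c is CYCS alone. Of all genes tested 19.0% rose and 21.2% fell, so counts this small are no result about a direction of these complexes. Of the 4 subunits of complex II, the enzyme shared with the citric acid cycle, SDHB was the one that passed the test. This iron-sulfur subunit had 1589, 1815 and 1452 reads in siControl and 1874, 1938 and 1761 in siZEB1 (log2 fold change 0.34 ± 0.07, adjusted p = 0.000632). In normalised CPM the groups were apart, at 77 ± 3.49 and 97.4 ± 4.69. The membrane anchor SDHC stood at -0.08 and SDHD at 0.16, neither past the threshold. SDHA, the flavoprotein, had only 63 to 90 reads in any culture and 0.10 ± 0.18. Its annotation has 3 named pseudogenes, and how reads that match them were counted was not tested.

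Complex III had 1 subunit that rose, UQCRB (810, 884 and 848 reads against 889, 1007 and 887; log2 fold change 0.26 ± 0.08, adjusted p = 0.0131), and 9 that did not pass the test. The core protein UQCRC1 lay just outside the threshold, at -0.15 ± 0.06 (adjusted p = 0.0558), and cytochrome c1 (CYC1) at -0.14 ± 0.07 (adjusted p = 0.136). The Rieske iron-sulfur protein UQCRFS1 was at 0.05 ± 0.06 and the hinge protein UQCRH at 0.08 ± 0.07. UQCRHL, an intronless relative of UQCRH, was at 0.29 ± 0.16 with 83 to 121 reads. CYCS, cytochrome c itself, had 9837, 8959 and 8302 reads in siControl and 10269, 10577 and 10278 in siZEB1. It rose by 0.33 ± 0.06 log2 units (adjusted p = 0.000187), with all siZEB1 cultures above all controls. The annotation names 40 CYCS pseudogenes, and their part in the count was not tested.

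The structural subunits of complex IV were nearly level. Of 13 tested, 2 rose and 1 fell, a share called of 23.1% beside 40.2% of all genes. The median log2 fold change was 0.08. COX4I1 (0.01 ± 0.07), COX5A (-0.01 ± 0.08) and COX6B1 (0.00 ± 0.08) had values near 0 and overlapping groups. The calls were small. NDUFA4, first assigned to complex I, rose by 0.20 ± 0.07 and COX7A2 by 0.22 ± 0.08 (adjusted p = 0.0323 and 0.03, each past the threshold in 7 of 12 alternative fits). COX7A2L, a relative of COX7A2 that links complexes III and IV into supercomplexes, fell by 0.22 ± 0.06 (adjusted p = 0.0107; 3358, 3255 and 3051 reads against 2478, 2674 and 2412). The reads of COX7A2 per read of COX7A2L went from 0.392 ± 0.0325 to 0.530 ± 0.0268 without overlap (exact permutation p = 0.1).

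The cells used the common rather than the tissue-restricted isoforms. Per kilobase of exon, COX4I1 stood at 51 CPM in siControl beside 0.0679 for COX4I2, COX6B1 at 147 beside 0.0514 for the testis form COX6B2, and COX7A2 at 31.3 beside 0.219 for the muscle form COX7A1. NDUFA4 stood at 40.7 beside 0.328 for NDUFA4L2. COX4I2, COX6B2, COX7A1 and COX8C were below the filter, with at most 9 reads in any culture. COX6A1, the common isoform of its subunit, had only 42 to 56 reads, and 13.0% of its exon bases are shared with another gene on the same strand.

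The complex IV assembly factors that the name rule takes, all named COX, held the widest changes among the coding members. Of 9 tested, 3 rose, 3 fell and 3 did not pass, a share called of 66.7% beside 40.2% of all genes. Complex IV factors with other names are in the list read further below. There COA6 and CMC2 rose and COA5 fell. SCO1, SCO2, SURF1, PET100, TACO1, COA1, COA3, COA4, COA7, CMC1 and SMIM20 did not pass the test. The share of 66.7% is therefore not one of complex IV assembly as a whole. Heme A, the heme of cytochrome c oxidase, is made in successive steps by COX10 and COX15. COX10, which makes heme O from heme B, had 1056, 1179 and 1031 reads in siControl and 406, 403 and 434 in siZEB1, a 2.39-fold lower level (log2 fold change -1.26 ± 0.08, adjusted p = 1.34e-09). COX15, which turns heme O into heme A, moved the other way. Its reads were 775, 669 and 617 in siControl and 916, 958 and 867 in siZEB1 (log2 fold change 0.55 ± 0.08, adjusted p = 5.25e-05). The reads of COX10 per read of COX15 went from 1.36, 1.76 and 1.67 to 0.443, 0.421 and 0.501, so that the order of the pair was turned in each culture (exact permutation p = 0.1). Exons of other genes on the same strand cover 25.6% of the COX15 exon bases and none of those of COX10.

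Copper delivery was split in the same manner. COX17, the copper chaperone of the intermembrane space, rose from 311, 368 and 289 to 433, 516 and 428 reads (log2 fold change 0.65 ± 0.10, adjusted p = 4.13e-05). COX11, which helps to place copper in the enzyme, rose by 0.21 ± 0.07 (adjusted p = 0.0258). COX19, a partner in copper handling, fell from 528, 579 and 523 to 319, 296 and 328 reads (log2 fold change -0.65 ± 0.09, adjusted p = 1.18e-05). In reads, COX17 stood at 0.592 ± 0.0416 per COX19 in siControl and at 1.47 ± 0.239 in siZEB1 (exact permutation p = 0.1). COX18, which inserts a mitochondrially made subunit into the membrane, fell by 0.28. Exons of other genes on the same strand cover 17.6% of the COX17 and 21.4% of the COX19 exon bases, and their part in the counts was not tested.

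**Figure D3:**
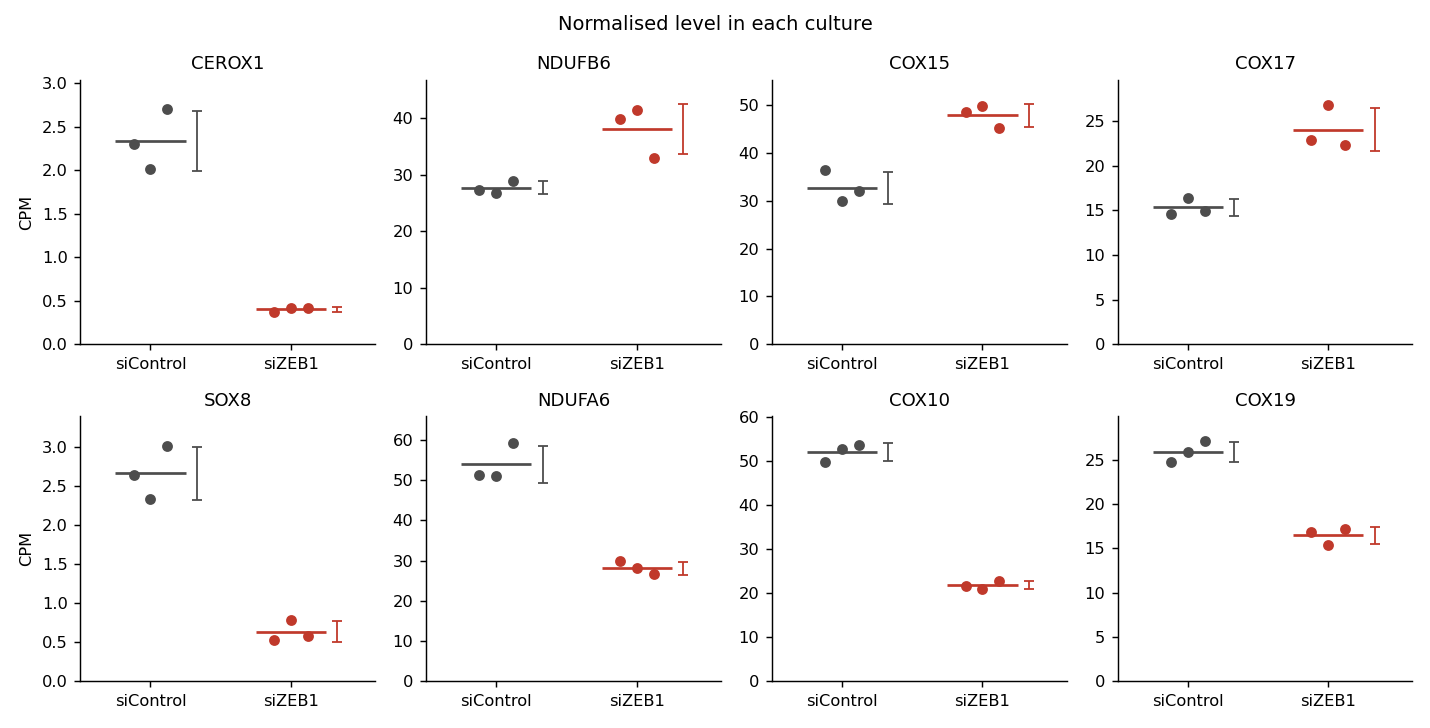
Level in CPM (linear axes from 0, a separate scale per panel) of CEROX1 and its neighbour SOX8, the complex I subunits NDUFB6 and NDUFA6, the heme A synthesis genes COX15 and COX10 and the copper-handling genes COX17 and COX19. Points are cultures, horizontal lines means and bars the SD (n = 3), and the groups do not overlap in any panel.

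The promoters of 4 of these genes are given because members with the same letters moved in opposite directions. Each runs from 250 bases before to 50 bases after the annotated start (RefSeq, GRCh38.p14), and capitals mark the motifs searched. Each motif was searched on both strands, so also as its reverse complement. The E-boxes of the ZEB1 family were CAGGTG and the variant ending in A in place of the last G, written here as CAGGTA. For the factor NRF1 a part of its motif, GCGCATG, was used. For the ETS family, to which GABPA belongs, the letters were CCGGAAG.
COX10, chr17:14069254-14069553, plus strand: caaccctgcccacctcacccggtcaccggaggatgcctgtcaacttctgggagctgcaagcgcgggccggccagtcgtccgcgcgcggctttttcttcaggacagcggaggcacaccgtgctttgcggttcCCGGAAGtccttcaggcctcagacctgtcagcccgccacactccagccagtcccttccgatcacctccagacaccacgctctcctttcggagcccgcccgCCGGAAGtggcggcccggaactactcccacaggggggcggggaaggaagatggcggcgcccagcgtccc
COX15, chr10:99732078-99732377, minus strand: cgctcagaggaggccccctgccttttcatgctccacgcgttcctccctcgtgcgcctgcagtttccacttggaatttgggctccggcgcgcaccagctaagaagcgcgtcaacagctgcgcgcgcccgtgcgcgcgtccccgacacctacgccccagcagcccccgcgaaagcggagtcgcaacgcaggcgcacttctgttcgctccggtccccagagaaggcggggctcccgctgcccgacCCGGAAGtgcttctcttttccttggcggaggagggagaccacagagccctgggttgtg
COX17, chr3:119677357-119677656, minus strand: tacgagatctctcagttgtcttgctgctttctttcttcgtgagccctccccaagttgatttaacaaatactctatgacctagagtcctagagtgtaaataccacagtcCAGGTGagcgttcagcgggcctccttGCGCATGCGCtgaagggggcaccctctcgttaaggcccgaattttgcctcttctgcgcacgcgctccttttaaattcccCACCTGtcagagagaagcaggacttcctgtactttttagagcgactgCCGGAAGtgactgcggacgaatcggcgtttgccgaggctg
ATP5MC2, chr12:53676034-53676333, minus strand: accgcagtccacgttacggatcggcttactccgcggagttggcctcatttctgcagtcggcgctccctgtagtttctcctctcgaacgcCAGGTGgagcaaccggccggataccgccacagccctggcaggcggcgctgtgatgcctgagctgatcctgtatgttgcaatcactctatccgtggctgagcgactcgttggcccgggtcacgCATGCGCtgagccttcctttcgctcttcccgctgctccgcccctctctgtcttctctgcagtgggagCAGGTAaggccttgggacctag
COX10 holds the ETS motif at 2 places and COX15 at 1. COX17, which rose, holds 2 E-boxes, and ATP5MC2, which fell, holds 2 E-boxes as well. A promoter was found for 85 members, and CEROX1 and SOX8 had no entry. The first E-box was in 16.5% of the members' promoters beside 20.6% of 27305 promoters, and the variant in 9.41% beside 9.68%. The NRF1 letters were in 23.5% beside 4.67% and the ETS letters in 28.2% beside 10.7%. Among tested members with the ETS letters, 5 of 23 rose and 1 fell, and among those without, 4 of 57 rose and 13 fell. With the NRF1 letters 5 of 18 rose and 3 fell, with the first E-box 1 of 13 rose and 2 fell, and with the variant 0 of 7 rose and 1 fell. Of all genes tested 19.0% rose and 21.2% fell, and calls were not counted over all genes with the same letters. The counts of members are a description of letters in a window and no test was made on them.

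Complex V showed both directions within its parts. Of 17 tested members, 2 rose, 5 fell and 10 did not pass, a share called of 41.2% beside 40.2% of all genes. The median log2 fold change was 0.06. The catalytic subunits hardly moved. ATP5F1B, the beta subunit and the most abundant member at 472 CPM per kilobase in siControl, was at 0.06 ± 0.05 and the alpha subunit ATP5F1A at -0.08 ± 0.06. The central stalk subunit ATP5F1D fell by 0.34 ± 0.10 (1115, 1254 and 1276 reads against 943, 948 and 747; adjusted p = 0.0121), and without siZEB1 culture 3 its adjusted p was 0.0609. In the peripheral stalk ATP5PB fell by 0.18 and ATP5PF rose by 0.24.

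The c-ring turns in the membrane as protons pass, and 3 genes make the same mature c subunit. ATP5MC1 had 1016, 1170 and 1043 reads in siControl and 678, 781 and 630 in siZEB1 (log2 fold change -0.49 ± 0.08, adjusted p = 0.000168). ATP5MC2 had 2226, 2541 and 2325 against 1426, 1503 and 1371 (-0.59 ± 0.07, adjusted p = 3.86e-06). Both fell with no overlap between the groups. ATP5MC3 had 4779, 4886 and 4525 against 4167, 4485 and 4022 reads, which after scaling gave -0.03 ± 0.06 (adjusted p = 0.733). The reads of ATP5MC2 per read of ATP5MC3 went from 0.50 ± 0.0297 to 0.339 ± 0.00377, and those of ATP5MC1 from 0.228 ± 0.0137 to 0.164 ± 0.00888, each without overlap (exact permutation p = 0.1). The reads counted for the c-ring genes therefore came to a larger part from ATP5MC3 in each siZEB1 culture. The annotation names 7 pseudogenes of ATP5MC1, 3 of ATP5MC2 and 0 of ATP5MC3. Other genes on the same strand share 6.99% of the ATP5MC2 and 1.39% of the ATP5MC3 exon bases. The part of such copies and exons in the counts was not tested.

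**Figure D4:**
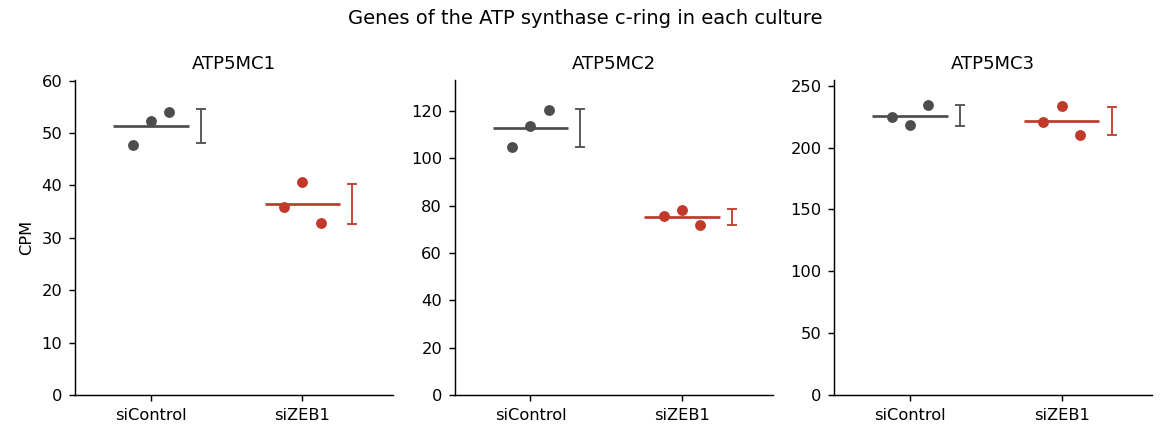
Level in CPM (linear axes from 0, a separate scale per panel) of the 3 c-ring genes of ATP synthase in the 6 cultures. Points are cultures, horizontal lines means and bars the SD (n = 3). ATP5MC1 and ATP5MC2 are lower in all siZEB1 cultures and ATP5MC3 overlaps.

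In the membrane part of the enzyme ATP5MF and ATP5MG moved apart. ATP5MF fell from 258, 286 and 297 to 128, 172 and 132 reads (log2 fold change -0.83 ± 0.13, adjusted p = 7.66e-05). ATP5MG rose from 197, 172 and 160 to 271, 285 and 233 (0.71 ± 0.11, adjusted p = 9.71e-05). Their ratio, ATP5MG over ATP5MF, went from 0.635 ± 0.116 to 1.85 ± 0.241. The annotation names 5 pseudogenes of ATP5MF and 6 of ATP5MG, and 8.57% and 8.19% of their exon bases are shared with another gene on the same strand. Whether reads were lost to or gained from those copies was not tested. The inhibitor of ATP hydrolysis, ATP5IF1, was at 0.12 ± 0.07 and did not pass the test.

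Some members that every respiring cell needs had very few reads. NDUFB8 had 1 to 14, NDUFA7 5 to 7 and ATP5ME 3 to 7 reads per culture and were not tested, and NDUFV2 had 10 to 31. Of the 9 subunits and assembly factors with over 20% of their exon bases shared on the same strand, 7 had less than 10 CPM, and their median was 1.70 CPM. Among 82 with neither strand shared to that degree, 12 had less than 10 CPM and the median was 53.7 CPM. The remaining 11 share over 20% with the opposite strand only, and 4 of them had less than 10 CPM, with a median of 18.4 CPM. ATP5ME is one of these, with 61.6% shared with the opposite strand and none with the same strand. For the low members the level is therefore given as counted, and the part of shared exons in it was not tested. In total 9 members were below the filter: NDUFA7, NDUFB8, COX4I2, COX6B2, COX7A1, COX8C, ATP5ME, ATP5MGL and the readthrough ATP5MF-PTCD1.

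Other assembly factors and regulators of the chain were read from a list of 55 genes outside the name rule. Of 52 tested, 9 rose and 10 fell, 36.5% beside 40.2% of all genes. Without siControl culture 2 the number that rose was 4 and without siZEB1 culture 2 it was 5, and the share of all genes in those fits is not given here. Among the 13 tested regulators, 2 rose and 5 fell, 53.8% beside 40.2% of all genes. PPARGC1B, a coactivator of the PGC-1 family that drives mitochondrial genes, fell from 626, 686 and 477 to 298, 276 and 320 reads (log2 fold change -0.86 ± 0.10, adjusted p = 2.6e-06). MYC, a growth regulator with many mitochondrial targets, fell from 10808, 11672 and 10146 to 6472, 6408 and 6146 reads (-0.64 ± 0.05, adjusted p = 5.47e-08). In both genes each siZEB1 culture lay below each control.

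GABPA, the DNA-binding subunit of an ETS factor that acts on many respiratory chain promoters, moved upwards. It had 986, 946 and 810 reads in siControl and 1202, 1218 and 1353 in siZEB1 (log2 fold change 0.60 ± 0.07, adjusted p = 6.04e-06). Its partner GABPB1 fell by 0.23 ± 0.08 (adjusted p = 0.0395). Among factors of mitochondrial gene expression, TFB1M, which methylates the small ribosomal RNA, fell by 0.48 ± 0.12 (adjusted p = 0.00321), the mitochondrial RNA polymerase POLRMT fell by 0.29 ± 0.07 (adjusted p = 0.0038) and the initiation factor TFB2M rose by 0.25 ± 0.07 (adjusted p = 0.0104). GABPB1, POLRMT and TFB2M were named after their values were seen. Of the 39 tested assembly factors of the list, 7 rose and 5 fell, 30.8% beside 40.2% of all genes. CMC2, a complex IV factor, rose by 0.48 ± 0.16 (adjusted p = 0.0203). Its adjusted p was 0.1 without siControl culture 1 and 0.0783 without siControl culture 2. Some factors of the list stayed past the threshold in all 12 alternative fits and are named for that. UQCC1 and HIGD1A rose by 0.38 each. LYRM7 fell by 0.45, COA5 by 0.39, TTC19 by 0.38 and TMEM126B by 0.27. The other called factors lost the call in some of the fits.

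The subunits that the mitochondrial genome encodes belong to the same enzymes, and their values are given beside those of the nuclear members. Of 13 such transcripts 11 fell and none rose, a share called of 84.6% beside 40.2% of all genes. Their median log2 fold change was -0.36, beside 0.06 for the coding nuclear members. For MT-CO1, the catalytic subunit of complex IV, the reads were 136505, 138792 and 125908 in siControl and 94131, 93308 and 93830 in siZEB1 (-0.38 ± 0.04, adjusted p = 2.05e-06). In the alternative fits 11 or 12 of the 13 fell. Mitochondrial transcripts come from shared precursors and are not independent of each other, and no test of the difference between the nuclear and mitochondrial sets was made.

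A 7-base sequence, GAACACA, that earlier results of these data had drawn attention to was counted in the 3′UTRs of the members. It stood in 10 of 97 coding members (10.3%) beside 11.2% of coding genes, whose median 3′UTR length was 1094 bases beside 323 for the members. None of these 10 rose and 3 fell, COX10, COX19 and COX7A2L, and the median log2 fold change of the 10 was -0.02. Of the 87 without the letters, 14 rose and 13 fell, with a median of 0.06, and of all genes tested 19.0% rose and 21.2% fell. A fall in 3 of 10 is near that share, and no test was made on these counts. The sites of COX10, COX19 and COX7A2L were picked for display by their fall, and those of the other holders are not shown. The 7 bases are in capitals, as DNA, from the GENCODE transcripts.
COX10, base 65 of the 3′UTR: tggtaattctgGAACACAagaagagaaatt
COX19, base 364: cagtcccttctGAACACAgatatcatcaga
COX19, base 464: aaaaaaaagtgGAACACAaagtaggaagtg
COX19, base 1734: ggatgtgagggGAACACAacagaccatgcc
COX7A2L, base 267: ggatgaaggctGAACACAggcttgttaatg
COX7A2L, base 377: ggctatggaaaGAACACAgaagccaaggtc
The letters are absent from the 3′UTRs of NDUFA6 (658 bases) and ATP5MF (18 bases) and from the CEROX1 transcripts, which also fell. A 3′UTR of 18 bases leaves little room for the letters. Whether the site had a part in any of these changes was not tested.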

How the data were processed

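RNA sequencing of total RNA from 6 SW480 cultures was analysed, 3 siControl and 3 siZEB1, grouped by sample title. The deposited files hold whole-number counts per gene, made by the authors. Per the labels, the submitters' processing notes name Trimmomatic, HISAT2, SAMtools and featureCounts with hg38. Versions, strand setting and treatment of multi-mapped reads were not given in the sources used here. The sources call the cultures independent replicates.

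Counts were scaled by TMM and fitted with the edgeR 4.0.16 quasi-likelihood test (R 4.3.3, filterByExpr, condition only, two-sided, Benjamini-Hochberg over 14996 genes, biological coefficient of variation 6.58%). The SE of a log2 fold change was derived as its absolute value divided by the square root of the quasi-likelihood F statistic. The procedure was also tested on simulated counts. CPM are TMM-scaled, and levels per kilobase divide by the merged exon length of GENCODE 29 (GRCh38). Within-culture read ratios (8 pairs, chosen after values were seen) were compared by two-sided exact permutation tests, which cannot go below 0.1, and their Benjamini-Hochberg adjusted p was 0.1 each. Single-gene intervals were not computed, and counts at this depth limit genes with few reads.

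The members and lists were chosen with earlier results of these data known. Named genes were CEROX1 and ZEB1, up to 5 called members per complex and among the assembly factors with the largest change and a mean of at least 1 CPM, fixed core subunits and isoform pairs, up to 5 called genes of the regulator list, and the listed genes next to CEROX1. Further members are named by call, and 1 gene that the rule chose is not reported here. Alternatives were DESeq2 1.42.0, other size factors, other filters and thresholds, a replicate block and leaving out each culture.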

Additional observations from a re-analysis of the deposited data

How the results depend on the processing

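CEROX1 stayed past the threshold in 11 alternative fits, with log2 fold changes of -2.41 to -2.62 when 1 culture was left out, and it could not be tested where 10 counts in every culture were required. The median log2 fold changes of the complexes and the share of counts moved by less than the spread between cultures in all alternatives. Requiring an unadjusted p below 0.05 and a fold above 1.5 left 1081 higher and 1402 lower genes, 3 higher and 6 lower members, and 2 higher and 2 lower genes of the assembly and regulator list. At an adjusted p below 0.01, 9 members were higher and 9 lower, and 3 list genes were higher and 8 lower. Leaving out 1 culture gave 9 to 22 higher and 11 to 16 lower members and 4 to 12 higher and 9 to 11 lower list genes. The same replicate numbers did not deviate together (correlations of -0.20, -0.24 and -0.51). Deviations were taken from means of 3 cultures, so they cannot show whether cultures of the same number were prepared together. With the replicate block, 10 members were higher and 11 lower. For the stricter threshold, the left-out cultures and the block, the share of all genes called is not given here. Those counts are therefore no result about the members or the list as such. No sample correlated best with its own number. Among the 45 genes that the naming rule chose, 494 of 539 alternative values kept direction and side of the threshold, 27 lost the call, 3 gained it and 15 changed sign, all in genes that were never past the threshold. With 1 culture left out, SDHA ranged from -0.025 to 0.21, COX4I1 from -0.029 to 0.073, COX5A from -0.079 to 0.084, COX6B1 from -0.070 to 0.088 and ATP5MC3 from -0.068 to 0.0089. COX6B1 was also 0.0071 by DESeq2, 0.0073 with median-of-ratios size factors, 0.00080 with 10 counts required in every culture and 0.0015 with the block. The causes were not tested. Depth limits the genes with few reads, such as SDHA, COX6A1 and CEROX1 in siZEB1.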
